A study of Caenorhabditis elegans with 6 samples.

Results

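The 43 genes described here act in the cell division cycle and in DNA replication of Caenorhabditis elegans. They were taken as the rows of the deposited gene table whose symbol is on a list of cyclins and their kinases, kinase inhibitors, replication factors, mitotic kinases, kinetochore and centrosome proteins and the RB/E2F regulators. All 43 were found, among 46254 genes with values. The table held read counts from 6 RNA-seq libraries of whole worms of the strain CF512, which is sterile at high temperature and is known to carry mutations in rrf-3 and fem-1. All worms were raised from eggs on RNAi bacteria at 25 °C for 48 h, and pooled animals were collected on day 1 of adulthood. The 3 groups of 2 libraries received the empty vector, RNAi of daf-2, which encodes the insulin/IGF-1 receptor, or RNAi of cav-1, which encodes a caveolin. Each of 2 biological repeats held 1 library of every group, and the comparisons below were made within repeats.

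Cyclins bind and activate cyclin-dependent kinases (CDKs), which start DNA replication in S phase and drive entry into mitosis. Replication origins are licensed by loading the MCM helicase ring, and mitosis depends on centrosomes, kinetochores and the central spindle. In adult worms the body cells no longer divide, so dividing cells are found in the germline. Oocytes also store many of these mRNAs for the divisions of the embryo.

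The libraries held 25474328 to 32886440 counts, and the members took between 0.441% and 1.14% of them. No member was rare: the lowest total over the 6 libraries was 1255 counts. The targeted genes were lower after their own RNAi in both repeats, daf-2 much less so in repeat 1. In CPM, the count scaled to a common library total, cav-1 stood at 178 in repeat 1 and 184 in repeat 2 of empty vector and at 6.13 and 1.84 after its own RNAi. daf-2 stood at 42.6 and 188 CPM with empty vector and at 26.4 and 30.6 CPM under daf-2 RNAi. Its log2 differences were -0.67 in repeat 1 and -2.58 in repeat 2. The drop in repeat 1 was close to the members' median in that repeat, -0.62. RNAi against daf-2 also went with less cav-1 mRNA, at 42.7 and 21.2 CPM. Of 20 sperm markers, 11 were at 0 in every library, and their summed level ran from 2.42 to 5.38 CPM. All 30 germline and oocyte markers were detected.

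In the empty vector worms the members spanned a wide range of levels. They are given as CPM per kb of the longest transcript, to set genes of different length side by side. Dividing by length acts alike on both repeats. It therefore leaves in place the trend with length in the difference between repeats, described below. rnr-2, the small subunit of ribonucleotide reductase, which makes DNA precursors, stood at 690 and 687 CPM per kb in repeats 1 and 2. The B-type cyclin gene cyb-3 stood at 342 and 793, and pcn-1, the PCNA sliding clamp, at 267 and 611 CPM per kb. At the other end were cyd-1, the cyclin D of G1 phase, at 2.95 and 5.69 CPM per kb, and the CDK inhibitor cki-1 at 10.9 and 10.2. The 2 lowest places in the order were held by the same genes in both repeats, whereas the other places often changed. The survivin homolog bir-1, the shortest member at 669 nt, was the clearest case. It fell from place 4 in repeat 1 (277 CPM per kb) to place 29 in repeat 2 (68.7 CPM per kb). The median member stood at 55 CPM per kb in repeat 1 and 96.9 in repeat 2 (mean 76.0 ± 29.7, SD, n = 2).

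**Figure D1:**
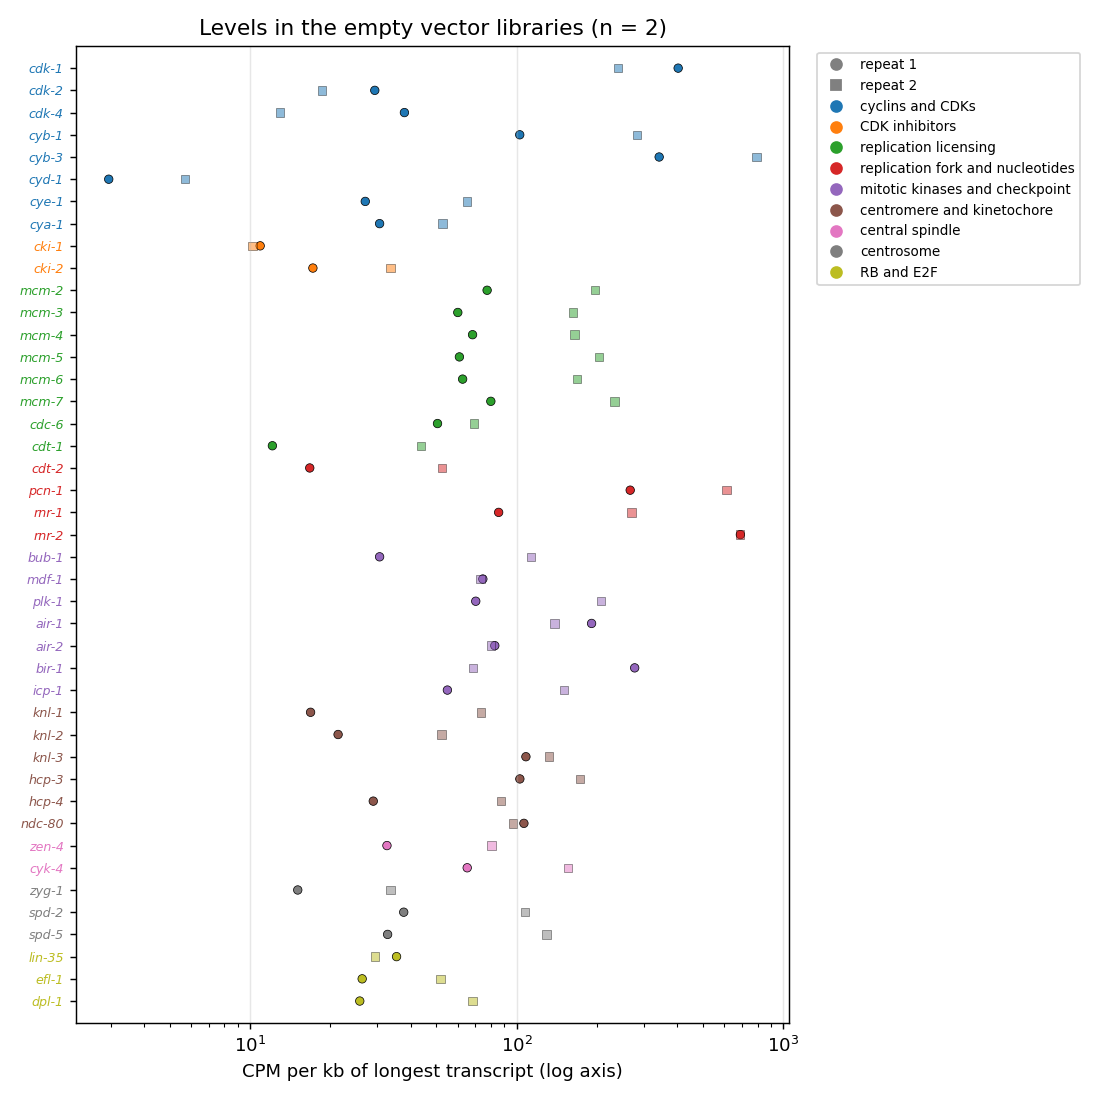
Level of each of the 43 genes in the 2 empty vector libraries, in CPM per kb of the longest transcript on a log axis. Circles are repeat 1, squares repeat 2, and colours mark the role of the gene. rnr-2 and cyb-3 lie at the top of the range and cyd-1 and cki-1 at the bottom; most squares lie to the right of their circles, while those of bir-1, cdk-1 and cdk-4, among others, lie to the left.

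Genes whose products work in 1 complex were not all at like levels. The 6 genes of the MCM helicase, mcm-2 to mcm-7, lay close together in every library, with the highest between 1.33 and 1.59 times the lowest per kb. In contrast, rnr-2 stood at 8.06 times rnr-1 per kb in empty vector repeat 1 and at 2.54 times in repeat 2. Over all 6 libraries this ratio of the small to the large reductase subunit ran from 2.54 to 11.1, and it was higher in every repeat 1 library than in any repeat 2 library. The B-type cyclins kept a narrower ratio, with cyb-3 at 2.78 to 3.51 times cyb-1. The MCM genes were close in length (2418 to 2827 nt), as were cyb-3 and cyb-1 (1456 and 1691 nt). In contrast, rnr-2 had 1386 nt and rnr-1 2633 nt. The difference between repeats went with transcript length, as described below, and the part of length in these ratios was not tested.

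Under daf-2 RNAi the members lay lower than with empty vector across all roles, by a modest amount that did not pass the test for any single gene. The test was limma's moderated test on log2(CPM + 1) with the repeat as a block, Benjamini-Hochberg adjusted over 14378 genes, with a threshold of 0.05. It called 0 of 43 members in either direction, while 3.13% of all genes tested were called lower and 4.31% higher. The log2 difference was below 0 for 43 of 43 members, with a median of -0.57, which is 0.674 times the empty vector level. With scaling by total counts or a stricter filter on low values it was below 0 for 42, bir-1 being the exception. The median was -0.62 in repeat 1 and -0.51 in repeat 2, against -0.05 for all genes tested. The members were lower in both repeats in 42 of 43 cases, compared with 42.8% of all genes tested, and both daf-2 RNAi libraries were below both empty vector libraries in 9 cases, compared with 12% of all genes. The unadjusted p was below the threshold in 26 of 43 members, compared with 24.2% of all genes in either direction. A smaller number of cells of a type and less RNA per cell cannot be told apart in whole worms.

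The differences were tightly grouped, with an interquartile range of 0.164 against 0.675 over all genes. This was not particular to the members. The range was 0.205 over 108 further genes of the same processes, described below, and 0.195 over 30 germline and oocyte markers. It was 0.095 for body muscle markers, but 0.338 for neuron, 0.590 for intestine, 0.674 for early embryo and 1.39 for hypodermis markers. Class medians ran from -0.67 for the central spindle genes zen-4 and cyk-4 to -0.50 for the CDK inhibitors cki-1 and cki-2. The 8 licensing genes had a median of -0.62 and a range of -0.69 to -0.50, and the 6 centromere and kinetochore genes a median of -0.62. The 8 cyclins and CDKs ran from -0.96 for cyd-1 to -0.11 for cdk-4.

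**Figure D2:**
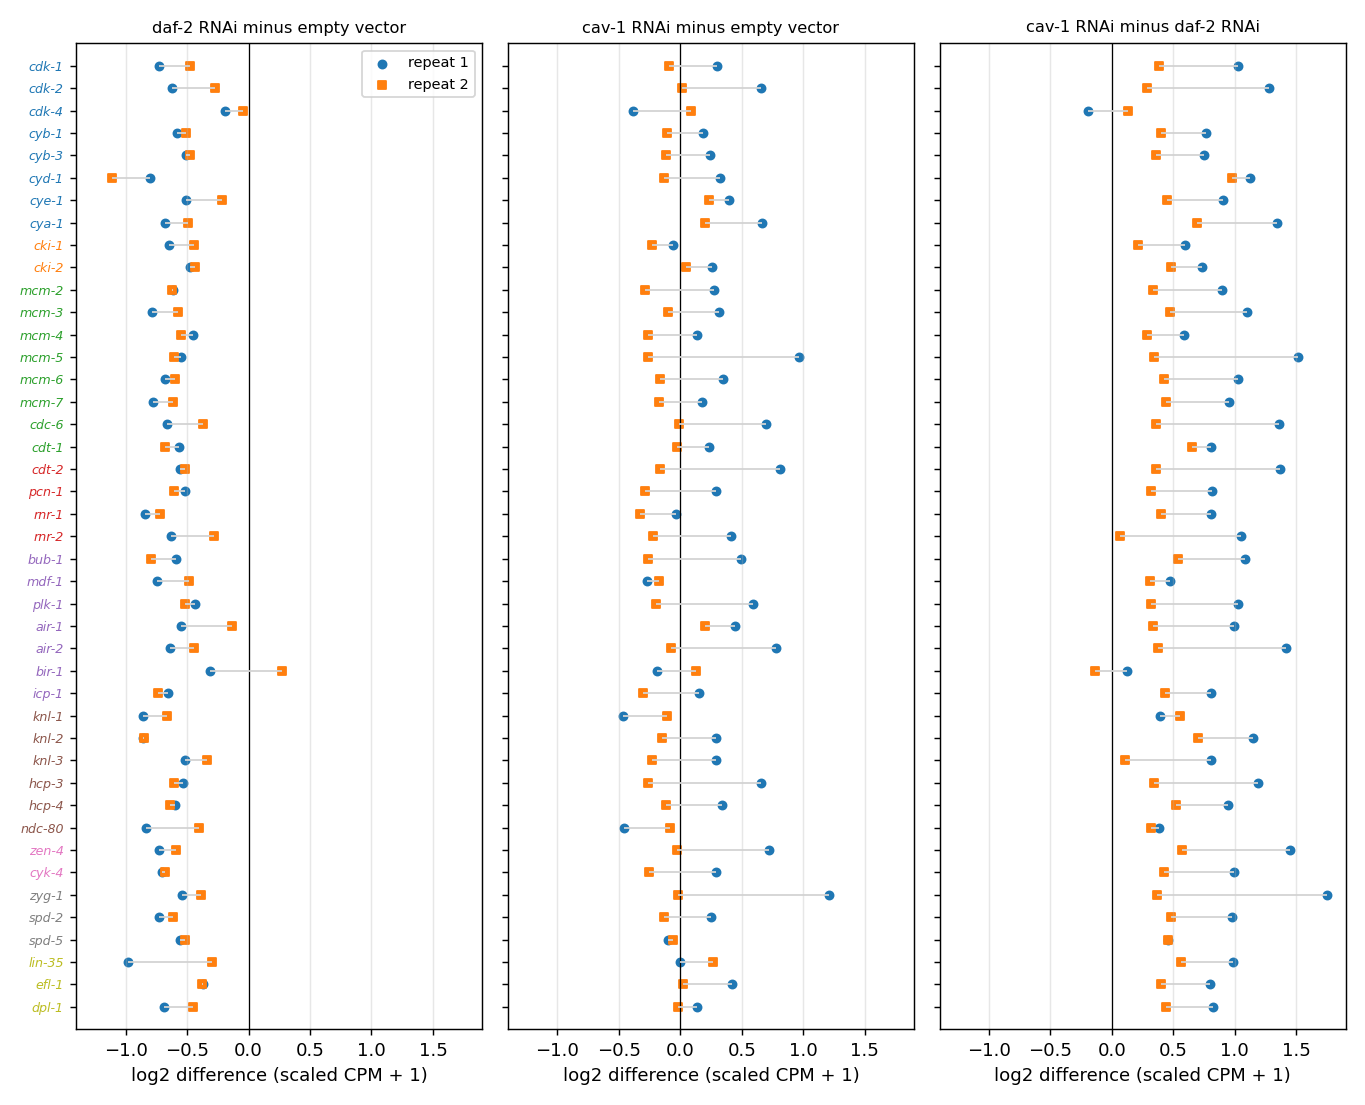
Log2 difference of each member in repeat 1 (circles) and repeat 2 (squares), for daf-2 RNAi minus empty vector, cav-1 RNAi minus empty vector and cav-1 RNAi minus daf-2 RNAi. In the left panel every point except repeat 2 of bir-1 lies below 0. In the middle panel most circles lie above 0 and most squares below it.

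The G1 cyclin gene cyd-1 (chromosome II, 12980591 to 12993117, WBcel235) was at 5.94 and 11.5 CPM with empty vector, 2.97 and 4.78 under daf-2 RNAi, and at 7.67 and 10.4 with cav-1 RNAi, repeats 1 and 2 in each case. Both daf-2 RNAi libraries were below the other 4. Relative to empty vector its log2 difference was -0.96 (SE 0.27, adjusted p = 0.0579 by limma), and its interval at 95% confidence ran from -1.55 to -0.36. With a pseudocount of 4 CPM the difference was -0.66 (adjusted p = 0.0758 by limma). Its kinase partner cdk-4 (chromosome X, 13515856 to 13518911) did not follow it: the values were 46.7 and 16 CPM with empty vector, 40.9 and 15.5 under daf-2 RNAi, and at 35.6 and 17.1 with cav-1 RNAi. Here the repeats were far apart and the groups overlapped. Its difference from empty vector was -0.11 (SE 0.25, adjusted p = 0.780).

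S-phase and mitotic cyclins lay between these. cye-1, cyclin E, was at 57.0 and 137 CPM with empty vector, 39.8 and 118 under daf-2 RNAi, and at 75.4 and 161 with cav-1 RNAi. It had one of the 4 smallest differences under daf-2 RNAi, at -0.36 (SE 0.23, adjusted p = 0.331). The abundant cyclin B gene cyb-3 was at 498 and 1154 CPM with empty vector, 349 and 830 under daf-2 RNAi, and at 589 and 1063 with cav-1 RNAi. In each repeat its daf-2 RNAi library was the lowest, with differences of -0.51 and -0.48. cki-2, the CDK inhibitor with the higher level, was at 24.8 and 48.6 CPM with empty vector, 17.6 and 35.8 under daf-2 RNAi, and at 29.9 and 50.4 with cav-1 RNAi, so inhibitor and cyclins were low in the same libraries.

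Among the replication genes rnr-1 (chromosome III, 9225339 to 9228798), the large subunit of ribonucleotide reductase, was at 225 and 710 CPM with empty vector, 125 and 430 under daf-2 RNAi, and at 219 and 567 with cav-1 RNAi. Within each repeat the daf-2 RNAi library was the lowest of the 3, but the groups overlapped because repeat 2 was so much higher. The difference was -0.78 (SE 0.22, adjusted p = 0.0559). rnr-2, the small subunit, was at 956 and 952 CPM with empty vector, 616 and 782 under daf-2 RNAi, and at 1277 and 817 with cav-1 RNAi, a difference of -0.46 (SE 0.26, adjusted p = 0.288) under daf-2 RNAi. The daf-2 RNAi and empty vector libraries did not overlap for it. The helicase gene mcm-7 was at 196 and 570 CPM with empty vector, 114 and 372 under daf-2 RNAi, and at 221 and 505 with cav-1 RNAi, with a difference of -0.69 (SE 0.22, adjusted p = 0.0924) under daf-2 RNAi. The other 5 helicase genes had differences of -0.68 to -0.50, and the origin loaders cdc-6 and cdt-1 of -0.52 and -0.62.

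The kinetochore gene knl-2 (chromosome I, 6460878 to 6464286), needed to load the centromeric histone, was at 62.8 and 153 CPM with empty vector, 34.2 and 84.6 under daf-2 RNAi, and at 77 and 138 with cav-1 RNAi. Its repeats gave nearly the same difference, -0.86 and -0.85, and it had the smallest adjusted p of the 43 under daf-2 RNAi, 0.0507 by limma (log2 difference -0.85, SE 0.23). knl-1 (chromosome III, 8250632 to 8253943), the scaffold of the microtubule-binding kinetochore network, was at 51.2 and 223 CPM with empty vector, 27.9 and 141 under daf-2 RNAi, and at 36.9 and 207 with cav-1 RNAi. In both repeats the empty vector library was the highest and the daf-2 RNAi library the lowest, and the difference was -0.76 (SE 0.22, adjusted p = 0.0707). hcp-3, the centromeric histone H3, was at 104 and 175 CPM with empty vector, 71.5 and 115 under daf-2 RNAi, and at 165 and 146 with cav-1 RNAi. Its close paralog cpar-1 could share reads with it, and the treatment of such reads is not stated. The exons of knl-2 overlap those of acdh-3 on the other strand by 92 nt, 1 of 16 members that overlap a gene on the opposite strand, and the strand setting of the counting is not stated either.

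Among mitotic kinases and their partners, bir-1 and air-1 stood out for small differences. bir-1 (chromosome V, 11644477 to 11645370), the survivin of the chromosomal passenger complex, was at 185 and 46.0 CPM with empty vector, 149 and 55.6 under daf-2 RNAi, and at 162 and 50.4 with cav-1 RNAi. It was the 1 member that was not lower in both repeats, with differences of -0.32 and 0.27 under daf-2 RNAi. The other passenger genes icp-1 (INCENP) and air-2 (Aurora B) had differences of -0.69 and -0.54. air-1, Aurora A, was at 255 and 186 CPM with empty vector, 174 and 169 under daf-2 RNAi, and at 347 and 214 with cav-1 RNAi, and lay at -0.34 after daf-2 RNAi (SE 0.23, adjusted p = 0.360). Its daf-2 RNAi libraries were below the other 4.

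Structural and regulatory genes were similar. cyk-4, of the central spindle, was at 144 and 342 CPM with empty vector, 87.8 and 214 under daf-2 RNAi, and at 175 and 286 with cav-1 RNAi. The centrosome scaffold gene spd-5 was at 131 and 518, 89.0 and 362, and 123 and 497 CPM in the same order. dpl-1, the DP partner of E2F, was at 56.7 and 150, 34.9 and 109, and 62.6 and 148 CPM. For each of these genes the daf-2 RNAi library was the lowest of its repeat, with differences of -0.69, -0.54 and -0.57, and none passed the test.

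**Figure D3:**
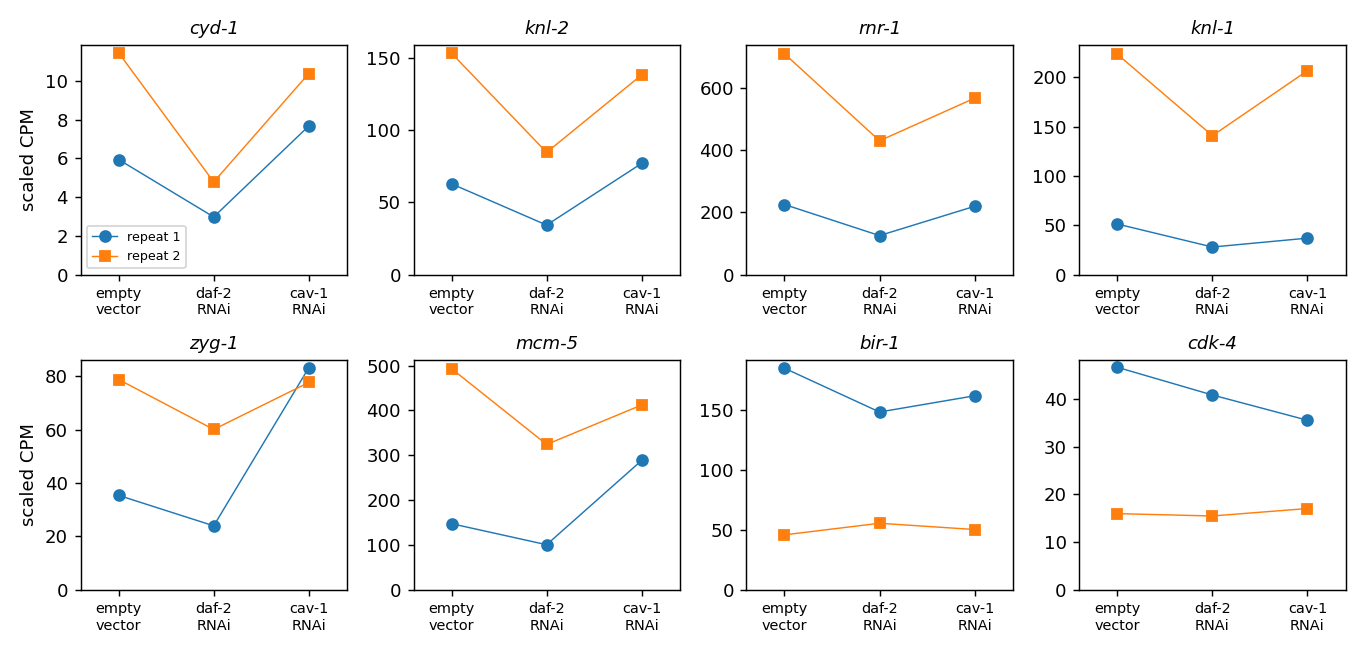
Scaled CPM of 8 members in every library, with lines joining the libraries of 1 repeat; circles are repeat 1 and squares repeat 2, and each panel has its own axis from 0. For cyd-1, knl-2, rnr-1 and knl-1 the daf-2 RNAi library is the lowest of both repeats. For zyg-1 and mcm-5 the cav-1 RNAi library of repeat 1 stands highest in its repeat, and for bir-1 and cdk-4 repeat 1 lies above repeat 2.

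The count of members called under daf-2 RNAi changed with the libraries that entered the fit. With all 6 libraries 7.44% of all genes were called in either direction. Without cav-1 RNAi repeat 1, 13 members were called lower, where 8.55% of all genes were called, 693 higher and 537 lower. Without cav-1 RNAi repeat 2 the members' differences ran from -0.97 for cyd-1 to -0.02 for bir-1. Without empty vector repeat 1 they ran from -1.14 for cyd-1 to 0.20 for bir-1, and without empty vector repeat 2 from -0.89 to -0.20. Without daf-2 RNAi repeat 1 they ran from -0.99 to 0.20, and without daf-2 RNAi repeat 2 from -0.76 to 0.13. The authors' deposited table had 11 members lower under daf-2 RNAi, where 4.58% of all genes with an adjusted p were lower and 4.97% higher: cyd-1, mcm-3, mcm-7, rnr-1, bub-1, mdf-1, icp-1, knl-1, knl-2, cyk-4 and spd-2. Of those 11, 10 were among the 13 called without cav-1 RNAi repeat 1. In the authors' deposited table the median log2 fold change of the members was -0.60.

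Markers of the germline also lay lower under daf-2 RNAi. The 30 germline and oocyte markers had a median log2 difference of -0.47 under daf-2 RNAi, 29 of 30 were below 0, and none was called. Their summed level was 12751 and 31000 CPM with empty vector, 10082 and 22283 under daf-2 RNAi, and at 15174 and 28013 with cav-1 RNAi. The members themselves summed to 6523 and 12397 CPM with empty vector, 4225 and 8582 under daf-2 RNAi, and 8101 and 11127 with cav-1 RNAi. Both sums were lowest in the daf-2 RNAi library of each repeat. All 10 body muscle markers and 9 of 10 neuron markers were above 0, with medians of 0.50 and 0.59 and none called. The 10 intestine markers had a median of -0.32, with 1 called higher and 3 lower. The 8 tested hypodermis markers had a median of -0.070, with 2 called higher. Among all genes tested 4.31% were called higher and 3.13% lower. Of 8 tested early embryo markers 6 were called lower, but all 12 listed together reached no more than 51.3 CPM in any library, and hlh-27 was at 0. The part of these tissues in the members' difference was not tested.

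Under cav-1 RNAi no member passed the test against empty vector, and the medians of the repeats lay on opposite sides of 0. The limma test called 0 of 43 members, and the only gene called among all genes tested was cav-1 itself, lower, which is 0.00696%. No member had an unadjusted p below the threshold, against 3.99% of all genes. The median difference was 0.10, with 0.29 in repeat 1 and -0.11 in repeat 2. In both repeats 7 members were higher and 6 lower, which are shares below the 20.8% and 24.1% of all genes. The groups did not overlap for 1 member that was higher, lin-35, and for 2 that were lower, against 5.6% and 5.35% of all genes. For lin-35 the groups nearly touched, with 113.954 CPM in cav-1 RNAi repeat 1 against 113.928 CPM in empty vector repeat 1. The smallest adjusted p of any member was 0.977. Of the 43 members 11 were below 0 with all libraries, 34 without cav-1 RNAi repeat 1, 23 without empty vector repeat 1 and 7 with total-count scaling, so no direction is given for the group. In the authors' deposited table no member was called in this comparison either, where 0.162% of all genes were higher and 0.408% lower.

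The highest differences came from the cav-1 RNAi library of repeat 1. zyg-1 (chromosome II, 5649748 to 5654422), the kinase that starts centriole duplication, was at 35.4 and 78.8 CPM with empty vector, 24 and 60.0 under daf-2 RNAi, and at 83.1 and 77.7 with cav-1 RNAi. It was higher than empty vector in repeat 1 and level with it in repeat 2, giving 0.60 (SE 0.32, 95% interval -0.12 to 1.31). Without cav-1 RNAi repeat 2 it was called higher, at 1.17 (adjusted p = 0.0199 by limma), and without cav-1 RNAi repeat 1 the value was -0.03. The helicase gene mcm-5 was at 147 and 493 CPM with empty vector, 101 and 324 under daf-2 RNAi, and at 289 and 412 with cav-1 RNAi, which is 0.96 in repeat 1 and -0.26 in repeat 2. In that library mcm-5 was high only within repeat 1, below all libraries of repeat 2. Aurora B, air-2, was at 98.6 and 95.5, 62.9 and 69.8, and 170 and 90.8 CPM in the same order, high in 1 library of 6. cya-1 (chromosome III, 9106699 to 9109272), cyclin A, was at 63.8 and 110, 39.4 and 77.7, and 101 and 126 CPM, with differences of 0.66 and 0.20, and was thus 1 of the 7 members above empty vector in both repeats.

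At the low end were 3 genes of the kinetochore and the spindle checkpoint and rnr-1. knl-1 lay at -0.29 (SE 0.22), with -0.46 and -0.11 in the repeats. ndc-80, which binds spindle microtubules, was at 203 and 185 CPM with empty vector, 114 and 140 under daf-2 RNAi, and at 148 and 174 with cav-1 RNAi. The checkpoint gene mdf-1, the worm MAD1, was at 165 and 161, 97.9 and 115, and 137 and 142.5 CPM. For both genes the cav-1 RNAi libraries lay below the empty vector libraries and above the daf-2 RNAi libraries without overlap. Their differences from empty vector were -0.27 and -0.22 (SE 0.22 each, adjusted p = 0.977). rnr-1 was at -0.18 (SE 0.22).

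Set against each other, the treatments left 4 members higher under cav-1 RNAi than under daf-2 RNAi. This comparison shares its libraries with the ones above. Of 43 members 4 were called higher and 0 lower by limma, where 3.74% of all genes were called higher and 6.87% lower. The cyclin genes cya-1 and cyd-1 were higher than under daf-2 RNAi by 1.02 (SE 0.24, adjusted p = 0.0263) and 1.05 (SE 0.27, adjusted p = 0.0337) on the log2 scale. zen-4 (chromosome IV, 6118215 to 6121777), the kinesin of the central spindle, was at 106 and 262 CPM with empty vector, 63.9 and 173 under daf-2 RNAi, and at 176 and 258 with cav-1 RNAi. It was higher by 1.01 (SE 0.26, adjusted p = 0.0333) than under daf-2 RNAi, and knl-2 by 0.92 (SE 0.23, adjusted p = 0.0320). zyg-1 had a difference of 1.06 and missed the threshold (SE 0.32, adjusted p = 0.0584). With the trend of expression with transcript length removed from each library, zen-4 (0.79, adjusted p = 0.0532 by limma) and knl-2 (0.72, adjusted p = 0.0509) were no longer called, and air-2 was (0.93, adjusted p = 0.0434). With no filter on low counts cyd-1 lost its call (1.09, adjusted p = 0.0865 by limma).

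In this comparison 41 of 43 members were higher in both repeats, against 39.2% of all genes, and the groups did not overlap for 14, against 16.6%. The exceptions were bir-1 and cdk-4, at -0.01 and -0.03, and with scaling by the median of ratios both were above 0. The median was 0.68, with 0.95 in repeat 1 and 0.40 in repeat 2. ndc-80 and mdf-1 had small differences, 0.35 (SE 0.22) and 0.39 (SE 0.22). The 4 calls were lost without daf-2 RNAi repeat 1, without daf-2 RNAi repeat 2 or without cav-1 RNAi repeat 1, which each left no call. Without the repeat as a block, limma called no gene in any of the 3 comparisons of treatments. Without empty vector repeat 1 the members' differences ran from -0.03 for cdk-4 to 1.06 for zyg-1. The range was the same without empty vector repeat 2. Without cav-1 RNAi repeat 2 it was -0.31 to 1.64, for the same 2 genes. With scaling by the median of ratios 29 members were called higher. That setting called 1906 of all genes higher and 1191 lower, against 538 and 988 with TMM scaling. The authors' deposited table had 33 members higher, where 16.8% of all genes were higher and 9.11% lower. All 29 were among those 33.

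**Figure D4:**
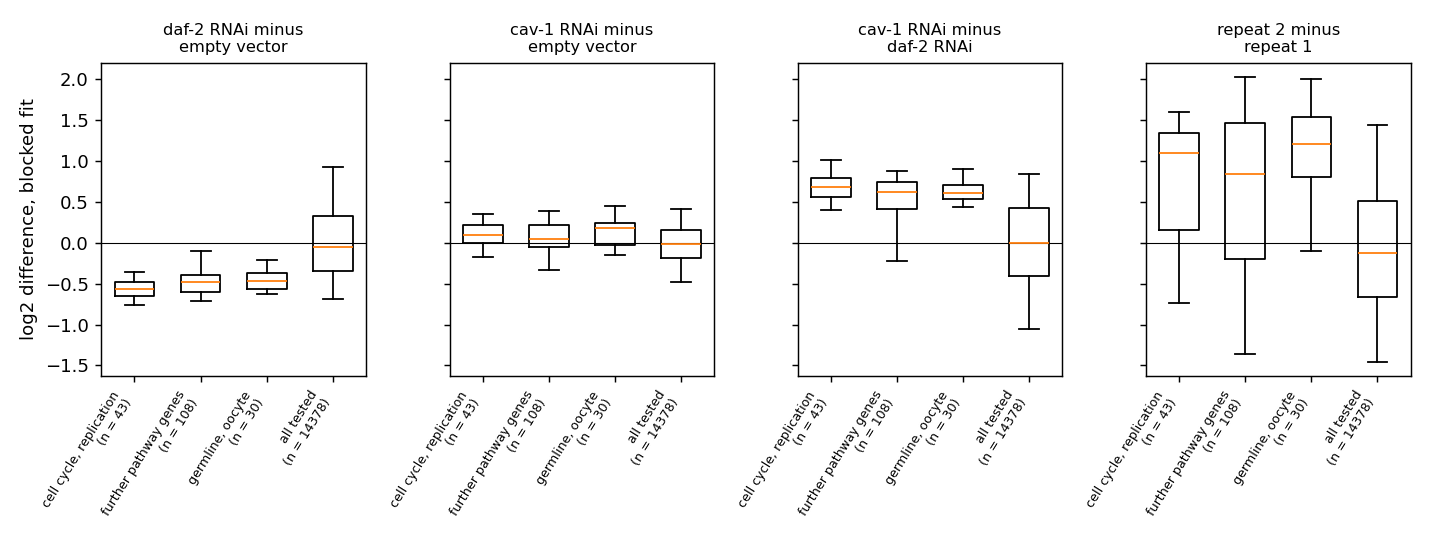
Log2 differences of the 43 members, 108 further genes of the same processes, 30 germline and oocyte markers and all 14378 genes tested, for the 3 comparisons of treatments and for repeat 2 minus repeat 1. Boxes show quartiles and medians, and whiskers the percentiles 5 to 95. The member boxes lie below 0 under daf-2 RNAi (median -0.57), near 0 under cav-1 RNAi (0.10) and above 0 between repeats (1.09).

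The members differed far more between repeats than between treatments. With the treatment as a term, 29 of 43 members were called higher in repeat 2 and 4 lower by limma, where 25.2% of all genes were called higher and 32.4% lower. The median difference was 1.09, a level 2.13 times that of repeat 1, against -0.13 for all genes. knl-1 rose by 2.28 (SE 0.18, adjusted p = 3.46e-05), the centrosome scaffold spd-5 by 2.00 (SE 0.17) and rnr-1 by 1.60 (SE 0.18). cdt-1, the origin licensing factor, was at 32.2, 21.4 and 38 CPM with empty vector and the RNAi of daf-2 and of cav-1 in repeat 1, and at 116, 72.1 and 114 in repeat 2. The checkpoint kinase gene bub-1 was at 93.7, 61.9 and 132 CPM in repeat 1 and 346, 199 and 289 in repeat 2. For both genes the repeats did not overlap, with rises of 1.70 and 1.55.

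Of the 8 licensing genes 7 rose in repeat 2, as did all 3 centrosome genes and both central spindle genes. The 4 members that fell were bir-1 and all 3 CDKs on the list, cdk-1, cdk-2 and cdk-4, while all 5 cyclin genes rose. bir-1 fell by 1.69 (SE 0.19, adjusted p = 8.38e-05) and cdk-4 by 1.28 (SE 0.21). cdk-1, the kinase of mitotic entry, was at 478, 288 and 588 CPM in the repeat 1 libraries and at 285, 205 and 267 in repeat 2, and fell by 0.79 (SE 0.19, adjusted p = 0.00476). cdk-2, which acts in S phase, was at 68.3, 44.1 and 108 CPM in repeat 1 and 43.4, 35.7 and 43.8 in repeat 2, and fell by 0.74 (SE 0.22). air-1 was at -0.40 (SE 0.19, adjusted p = 0.0942). The cyclin B genes cyb-1 and cyb-3 rose by 1.38 and 1.10, and cye-1 by 1.29.

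The difference between repeats went with transcript length. Over the 43 members the Spearman correlation of the difference with the length of the longest transcript was 0.67, and over 14270 genes with a known length it was 0.55, across genes that share the same 6 libraries. The 13 members of up to 1500 nt had a median difference of -0.08, the 16 members up to 2500 nt 1.17, and the 14 longer ones 1.39. Among the longer members cdk-2, at 2327 nt, fell, and lin-35, the worm RB gene, at 3215 nt, was at 0.05 (114, 57.2 and 114 CPM in repeat 1 and 94.4, 76.7 and 114 in repeat 2). After the trend with length was removed from each library, 26 members rose and 4 fell between repeats, with a median of 0.77, where 47.2% of all genes were called in either direction. These 4 were not the same: cdk-1, at -0.48, was no longer called (adjusted p = 0.0561 by limma), and lin-35, at -0.73, was called lower (adjusted p = 0.00703). The correlation of the daf-2 RNAi difference with length over the 43 members was -0.56, and -0.13 after that removal, while the median under daf-2 RNAi became -0.51. What differed between the repeats is not given in the labels, and its part in these values was not tested.

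**Figure D5:**
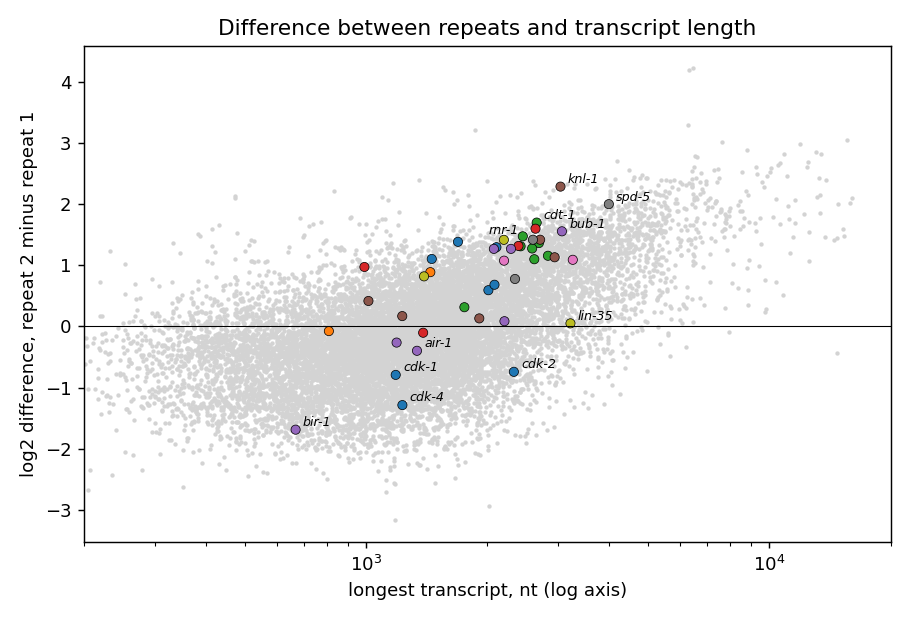
Log2 difference between repeat 2 and repeat 1 against the length of the longest transcript on a log axis, for all genes tested with a known length (grey) and the 43 members (coloured by role as in the plot of levels). The highest and lowest members and lin-35 are named. Members up to 1500 nt are spread on both sides of 0, from -1.69 to 1.10, and longer ones lie mostly above it. Among the longer members cdk-2 is the only 1 below 0, and lin-35, mdf-1 and ndc-80 lie close to 0.

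Another 108 genes of the same processes (30 of replication, 29 of cell cycle control and 49 of mitosis) were examined beside the members. Under daf-2 RNAi 102 of 108 were below 0 with a median of -0.48. By limma 1 was called lower, the kinetochore gene hcp-1, a CENP-F relative, and none higher. The shares of all genes tested were 3.13% lower and 4.31% higher. hcp-1 was at 141.6 and 604 CPM with empty vector, 71.6 and 356 under daf-2 RNAi, and at 128 and 528 with cav-1 RNAi, the lowest value of each repeat being under daf-2 RNAi, and fell by 0.87 (SE 0.21, adjusted p = 0.0342). The 6 genes above 0 were cdc-7, dhfr-1, cyk-1 and the kinetochore genes kbp-1, kbp-3 and kbp-4, named after their values were seen, and none of them passed the test. Under cav-1 RNAi none of the 108 was called and the median was 0.05. The smallest unadjusted p-values belonged to san-1 of the spindle checkpoint, at -0.77 (SE 0.35), and the ubiquitin ligase gene lin-23, at 0.69 (SE 0.27), both with an adjusted p of 0.977.

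Between the treatments 9 of the 108 were called higher under cav-1 RNAi than under daf-2 RNAi and none lower. Among all genes tested 3.74% were called higher and 6.87% lower. The condensin subunit genes capg-2 and kle-2 were higher by 1.12 (SE 0.28, adjusted p = 0.0325) and 0.89 (SE 0.24, adjusted p = 0.0385). The activator of the anaphase-promoting complex fzy-1 was higher by 0.93, the origin recognition gene orc-1 by 0.91 and the centriole gene sas-4 by 0.87. capg-2 was at 58.3 and 131 CPM under daf-2 RNAi, and at 196 and 188 with cav-1 RNAi, without overlap, and orc-1 at 73.1 and 164 against 190 and 225. Between repeats 64 of the 108 were called higher in repeat 2 and 22 lower, against 25.2% and 32.4% of all genes. The largest rises were those of the nonmuscle myosin gene nmy-2, at 2.60, and the condensin genes smc-4 and hcp-6, at 2.42 and 2.31, and the largest falls those of the polymerase subunit gene pole-2, at -2.09, and the replication kinase gene cdc-7, at -1.91. In the replication group alone the repeats were balanced, with 12 genes up, 9 down and a median of 0.11.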

How the data were processed

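Stranded mRNA libraries were made from pooled whole worms, per the labels' protocols. The authors deposited raw read counts per gene and library, whole numbers for 46748 listed genes, without the 494 (1.06%) that hold no value. Their log2 fold changes and adjusted p-values were deposited in the same table and are described as theirs. The submitters' processing notes name TopHat2 2.0.13, cutadapt 1.7.1, bcl2fastq 2.15.0.4, DESeq2 1.10.1 and Cufflinks 2.2.1, and the build WBcel235. For the counter, its annotation, its strand setting and reads shared by several genes the answer is not given in the sources used here.

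Symbols came from the deposited table, except for 15638 entries that were missing or, in 5 cases, date-like. These were replaced by the name of their gene identifier or, where it had none, by the identifier. Gene positions, lengths and exon overlaps came from an Ensembl annotation of WBcel235. Genes were tested with at least 0.348 CPM (10 counts in the median library) in 2 libraries and 15 counts in total, which left 14378 genes with 99.96% of the counts. Counts were scaled by TMM factors (0.922 to 1.04) and tested as log2(CPM + 1) with limma-trend (R 4.3.3, limma 3.58.1) on all 6 libraries, with group and repeat as terms, 2-sided, Benjamini-Hochberg adjusted per comparison, at a threshold of 0.05. Residual degrees of freedom were 2, and prior degrees of freedom 8.69. A count model was planned, but entries without a value kept the columns from being accepted as counts, so the planned log-scale test was used. The code was tested on simulated data.

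The repeat numbers pair the libraries, since the series' design text says that each biological repeat held every treatment. Over the genes tested, libraries with the same number deviated together from their groups, with correlations of 0.891 (empty vector with daf-2 RNAi), 0.807 (empty vector with cav-1 RNAi) and 0.812 (the treatments). With the repeat as a term, the difference between repeats is taken out of the error. The p-values measure how far the differences between groups disagreed between these 2 repeats, with that spread moderated over all genes. At this depth 10 counts are 0.304 to 0.393 CPM.

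The members, gene lists and tests were chosen with earlier results of these data known. Genes given in full were the called members, the 4 highest and 4 lowest differences per treatment comparison, the 5 highest and 5 lowest between repeats, the member with the highest level per kb in each of 9 roles, and, chosen after their values were seen, lin-35 and members of complexes shared with these. Of 112 further pathway genes listed, 4 (sld-3, pole-1, pola-1 and smc-1) had no matching symbol. The alternatives were the fit without the repeat, other filters, pseudocounts of 0.25 and 4, total-count and median-of-ratios scaling, removal of the length trend, and each library left out.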

Additional observations from a re-analysis of the deposited data

How the results depend on the processing

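The rarest member, cyd-1, had 1255 counts, and its daf-2 RNAi difference was -1.08 (adjusted p = 0.0463 by limma) with a pseudocount of 0.25 and -0.66 (adjusted p = 0.0758) with 4. Without the repeat block no gene was called in any comparison of treatments: 0 of the 1070 under daf-2 RNAi, 0 of the 1 under cav-1 RNAi, 0 of the 1526 between the treatments and 0 of the 4 members higher in the last, with group means unchanged by construction. edgeR and DESeq2 refits were not run.

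In the comparison of daf-2 RNAi with empty vector, the members' median of -0.57 was -0.49 with the stricter filter (5 CPM), -0.48 with total-count scaling and -0.65 with median-of-ratios scaling. With a library left out it ran from -0.65 to -0.40. Of all genes tested, 517 were called lower and 658 higher with a pseudocount of 0.25, which is 8.17% in either direction. With median-of-ratios scaling 584 were called lower and 628 higher, which is 8.43%. Members called lower were 2 (cyd-1 and knl-2) with a pseudocount of 0.25, 4 with median-of-ratios scaling, and 0 to 13 with a library left out. All genes called were 583 with the stricter filter and 697 to 2197 with a library left out. In the comparison of cav-1 RNAi with empty vector, all genes called were 2 with a pseudocount of 0.25, 6 with median-of-ratios scaling and 0 to 401 with a library left out, and members called higher 0 to 1. Between the treatments, 1906 of all genes were called higher and 1191 lower with median-of-ratios scaling. That setting called 29 members higher and 3097 genes in all. With a library left out these were 0 to 18 and 70 to 4200. Between repeats, 2 to 4 members were lower with a library left out. The cause of these shifts was not tested.

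Among the members named for each comparison, directions turned for 5. Over all 43 under cav-1 RNAi, those below 0 went from 11 to 34 without cav-1 RNAi repeat 1 and to 23 without empty vector repeat 1. Under daf-2 RNAi bir-1 was at 0.059 with the stricter filter and 0.066 with total-count scaling, and with a library left out it ran from -0.25 to 0.20 and cdk-4 from -0.27 to 0.13. Between the treatments bir-1 was at 0.028 with no filter, 0.083 with median-of-ratios scaling and 0.24 with the length trend removed, and cdk-4 at 0.055 with median-of-ratios scaling. With a library left out these ran from -0.21 to 0.012 and from -0.31 to 0.15. Under cav-1 RNAi, the range with a library left out was -0.035 to 1.17 for zyg-1, -0.22 to 0.87 for mcm-5 and -0.094 to 0.75 for air-2, in each case lowest without cav-1 RNAi repeat 1. Of the other values of single members, 418 kept direction and side of the threshold, 24 lost a call and 21 gained one.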
